A study of Mus musculus with 2 samples.

Results

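Zinc exporters of the Slc30 family, the metallothioneins Mt1 and Mt2 and the metal-sensing transcription factor Mtf1 were examined in mouse bone marrow-derived macrophages (BMDMs) that had been exposed to the culture supernatant of apoptotic cells. These are 10 genes (Slc30a1, Slc30a3, Slc30a4, Slc30a5, Slc30a6, Slc30a7, Slc30a9, Mt1, Mt2 and Mtf1) of 18194 named on the array. They were chosen by name, around the low ratio of Slc30a3 in this same comparison, so every value below is a description of these arrays and none is a test. All 17 probe sets that the annotation of the array gives to 1 of these genes alone were used. The BMDMs came from female C57BL/6J mice aged 8 weeks and had been grown with M-CSF for more than 7 days. One culture received, for 1 hr, the supernatant of W3 cells, a mouse T cell line carrying Fas, that had been treated with human FasL for 30 min, washed and left for 60 min in RPMI with 1% FCS. The other received RPMI, which the labels give as holding 10% FCS. Each condition was hybridized to 1 Affymetrix array, and whether RNA of more than 1 mouse was pooled is not given in the sources used here. Serum content differed between the cultures, and supernatant of living W3 cells was not analysed here, so apoptosis, W3 conditioning and serum cannot be told apart here. Zinc itself was not among the measurements.

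Slc30 proteins, also called ZnT, move zinc out of the cytosol, either across the plasma membrane or into organelles and vesicles, while Slc39 proteins, also called ZIP, bring it in. Metallothioneins are small cysteine-rich proteins that hold zinc and copper in the cytosol. When free zinc in the cell is high, Mtf1 binds to metal response elements in promoters and raises transcription of Mt1, Mt2 and Slc30a1, which makes these 3 genes common readouts of cellular zinc. Macrophages move zinc between compartments when they meet microbes, which can starve or poison what they have engulfed.

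The promoters of Mt1, Mt2, Slc30a1 and Slc30a3 are shown because the first 3 genes are the known zinc-responsive ones and Slc30a3 had the lowest ratio among genes with a signal above background on both arrays. They are RefSeq sequences of GRCm38.p6, each from 250 bases before to 50 bases after an annotated start, written 5′ to 3′ on the strand of the gene, and the start counts as base 0. Capitals mark the core of the metal response element, searched as TGCACNC or TGCGCNC on both strands, so that a core on the other strand appears as its reverse complement.
Mt1 (chr8:94178839-94179138, plus strand): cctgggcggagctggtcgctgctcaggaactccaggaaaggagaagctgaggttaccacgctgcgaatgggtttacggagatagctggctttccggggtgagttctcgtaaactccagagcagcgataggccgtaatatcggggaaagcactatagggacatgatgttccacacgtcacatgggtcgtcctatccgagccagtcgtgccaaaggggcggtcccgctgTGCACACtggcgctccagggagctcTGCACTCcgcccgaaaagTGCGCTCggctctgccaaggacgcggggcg
Mt2 (chr8:94172368-94172667, plus strand): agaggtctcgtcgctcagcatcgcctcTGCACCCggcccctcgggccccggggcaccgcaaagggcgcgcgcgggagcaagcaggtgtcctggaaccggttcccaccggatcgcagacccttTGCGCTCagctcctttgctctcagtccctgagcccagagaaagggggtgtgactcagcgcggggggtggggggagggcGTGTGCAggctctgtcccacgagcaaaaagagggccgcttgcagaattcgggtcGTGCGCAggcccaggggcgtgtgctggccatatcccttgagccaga
Slc30a1 (chr1:191906531-191906830, plus strand): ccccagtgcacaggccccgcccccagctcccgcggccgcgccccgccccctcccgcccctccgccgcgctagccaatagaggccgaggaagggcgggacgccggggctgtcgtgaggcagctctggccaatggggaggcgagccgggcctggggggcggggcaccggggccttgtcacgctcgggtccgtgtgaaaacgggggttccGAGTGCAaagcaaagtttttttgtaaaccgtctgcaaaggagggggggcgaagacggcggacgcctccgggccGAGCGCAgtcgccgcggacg
Slc30a3 (chr5:31108195-31108494, minus strand): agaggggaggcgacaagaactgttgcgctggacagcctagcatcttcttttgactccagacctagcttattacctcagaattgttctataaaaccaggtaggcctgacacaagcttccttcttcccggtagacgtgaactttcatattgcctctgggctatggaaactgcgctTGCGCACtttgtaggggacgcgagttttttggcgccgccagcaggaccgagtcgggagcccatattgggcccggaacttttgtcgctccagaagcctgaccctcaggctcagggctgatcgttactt

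The Mt2 promoter held 4 cores. The Mt1 promoter held 3, between base -23 and base 26. The Slc30a1 promoter held 2, which began at base -43 and base 30 and lay on the other strand. Slc30a3 has 2 annotated starts, and the upstream one had 1 core, beginning at base -77, while the downstream one had none. The upstream promoter is the one shown because only promoters with a core were printed. Of the other members, Slc30a4 held 3 and Slc30a5 held 1, and no core was found in the windows of Slc30a6, Slc30a7, Slc30a9 and Mtf1. Among all 32851 promoters of the same length 25.7% held at least 1 core, 7.11% at least 2, 1.97% at least 3 and 0.517% at least 4. A match of these letters is a description of the window and does not show that Mtf1 binds there. Counts and positions refer to the annotated starts. The starts used in these cells were not measured, and cores outside a window were not counted. On the chromosome Mt4, Mt3, Mt2 and Mt1 are consecutive protein-coding genes.

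**Figure D1:**
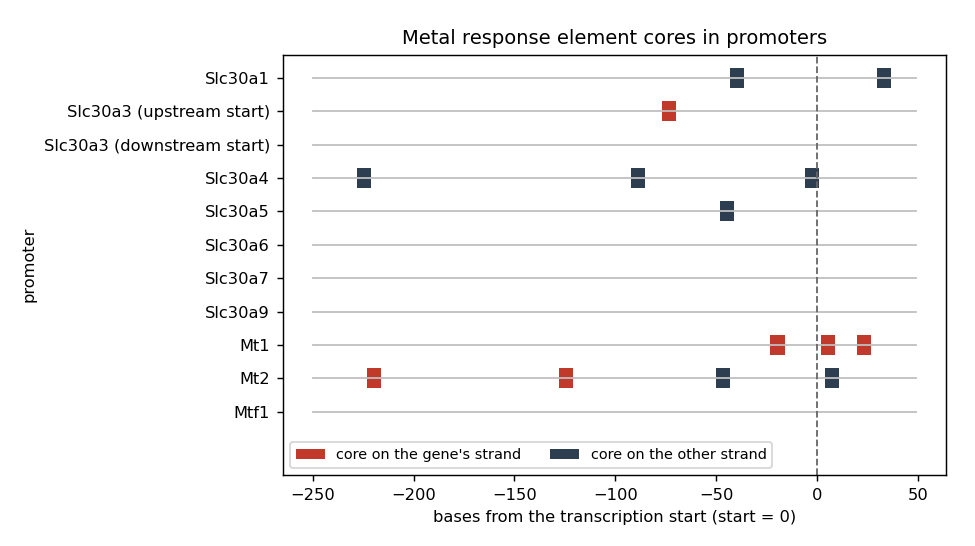
Positions of metal response element cores in the promoters of the 10 genes, in bases from the annotated transcription start (start = 0), with cores on the strand of the gene in red and on the other strand in dark blue; Slc30a3 has 2 starts. Mt2 holds 4 cores and Mt1 and Slc30a4 hold 3 each, and 4 of the 10 genes hold none.

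The deposited signal of a probe set is a linear intensity. A floor of 38.4 was set from 80 probe sets of olfactory and vomeronasal receptors, as the higher of the 95th percentiles of both arrays, and signals under it were raised to it before a ratio was taken. A gene was read by its brightest probe set, and it counts as measured when at least 1 array exceeded the floor, as 11977 genes did. All 10 members passed, and on their brightest probe sets all were above the floor on both arrays. Neither condition was repeated, so no p-value or SD can be given. As a scale for the size of differences, the log2 ratios of the 2 brightest probe sets of a gene above the floor on both arrays were compared (5196 genes). The SD of their difference, divided by the square root of 2, was 0.25. This value per probe set is called the SD between probe sets below. It holds no biological or array-to-array error, and the difference itself varies more widely.
Median signals were 49.3 with the supernatant and 53.0 with medium. All 8 macrophage markers, among them Csf1r, Adgre1 and Lyz2, were above the floor on both arrays, and 1 of them, the engulfment receptor Mertk, was at least 2-fold higher (1049.99 with the supernatant and 471 with medium). Neither array exceeded the floor for 7 of the 11 T cell markers that could be read, among them Cd3d, Cd3e and Cd3g. Of the other 4, Cd28 read 283 with the supernatant and 393 with medium, and Zap70 read 313 with the supernatant and 208 with medium. Cd5 read 42.8 with the supernatant and 65.9 with medium. Cd8a was under the floor with the supernatant and read 72.9 with medium. The signals of all 11 summed to 717 with the supernatant and 834 with medium. No marker of T cells, neutrophils, B cells, dendritic cells or mast cells was 2-fold apart once the floor was applied.

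After 1 hr with the apoptotic cell supernatant Slc30a3 was lower than in medium, and so, by less, were the metallothioneins, while the plasma membrane exporter Slc30a1 was higher. Of the 10 genes 2 were at least 2-fold lower, Slc30a3 and Mt2, in a comparison in which 0.843% of all measured genes were. None of them was at least 2-fold higher, as 0.96% of all measured genes were. Over all measured genes 115 were at least 2-fold higher and 101 lower, a split that was 137 and 66 after quantile normalization and 136 and 71 after loess. The members were chosen with these ratios in view, so nothing is read from that contrast of shares. Of the 10 ratios 7 were below 1, as were 54.6% of those of all measured genes, and 3 were above 1, as were 45.4%. For the 10 genes the median log2 ratio was -0.073, against -0.020 over all measured genes. On their brightest probe sets Slc30a5, Slc30a6, Slc30a7, Slc30a9 and Mtf1 had ratios within the SD between probe sets. The share of all measured genes within it was not counted, so nothing is read from this number of members. Another Mtf1 probe set, 1429170_a_at, lay beyond it (log2 ratio 0.32).

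**Figure D2:**
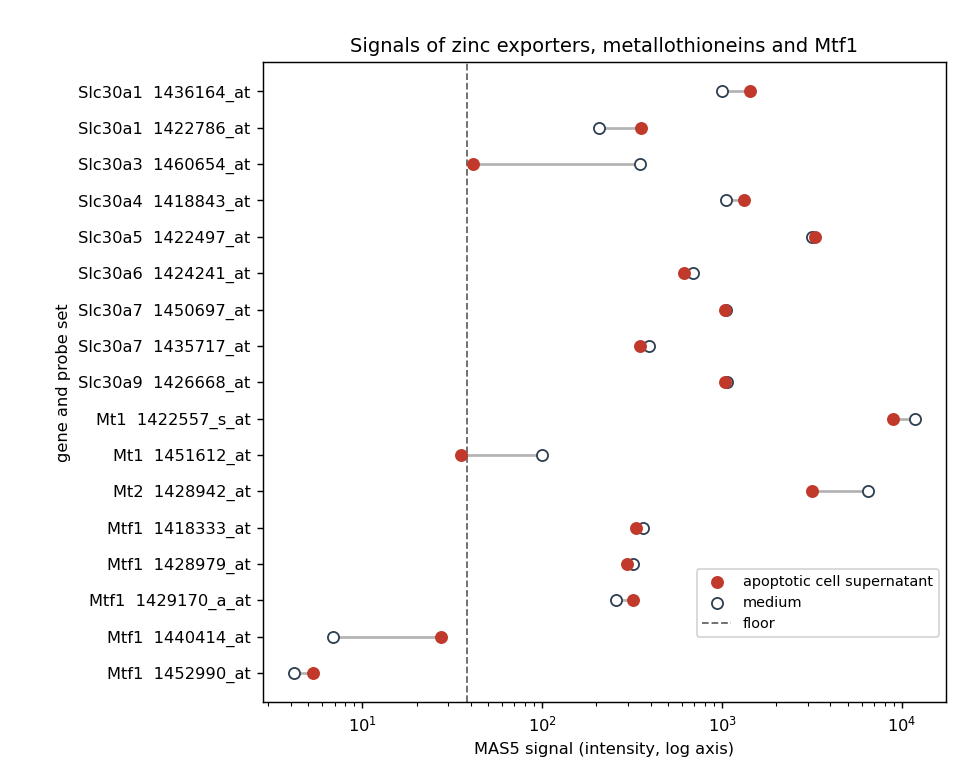
MAS5 signal (intensity, log axis) of all 17 probe sets of the 10 genes with apoptotic cell supernatant (filled red circles) and with medium (open circles), 1 array each; the dashed line is the floor of 38.4. The Slc30a3 probe set has the widest gap of those above the floor on both arrays (41.4 with the supernatant and 352 with medium), and both Slc30a1 probe sets lie farther right with the supernatant.

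Slc30a3 encodes ZnT3, which loads zinc into synaptic vesicles of neurons. Its only probe set, 1460654_at, read 41.4 with the supernatant and 352 with medium, 8.50-fold lower (log2 ratio -3.09). The supernatant signal lay barely above the floor and below the highest signal of a receptor probe set on that array, 44.7, whereas the medium signal was far above the highest on its own array, 62.4. Of the 10696 genes above the floor on both arrays none had a lower ratio, and the next was Plk2 (3.32-fold lower). After flooring, Slc30a3 was the only 1 of 11977 genes (0.00835%) at least 4-fold lower. That count holds for floored signals alone, because 734 measured genes were under the floor with the supernatant and their ratios are bounds. By the deposited signals 71 of those 734 had a lower ratio than Slc30a3 and 176 were at least 4-fold lower, so a place for Slc30a3 among all measured genes is not settled. With the floor 2 times as high, which leaves a lower bound, Slc30a3 was at least 4.58-fold lower.
The gene has no second probe set that could repeat the reading. Of 7 neuron markers Snap25, Rbfox3, Slc17a7 and Gad1 were under the floor throughout, and Syp, Syn1 and Map2 had higher signals with the supernatant, the largest difference being that of Syn1 (189 with the supernatant and 141 with medium). The AP-3 adaptor complex sorts ZnT3 into synaptic vesicles, and Clcn3, of the CLC family of chloride channels and transporters, shares those vesicles. Of 9 genes of this list 8 were measured, none was 2-fold apart in either direction, and the median log2 ratio was 0.0086. Its brightest were 3 subunits of AP-3. Ap3s1 read 7681 with the supernatant and 7419 with medium, Ap3m1 read 2586 with the supernatant and 2606 with medium, and Ap3d1 read 2587 with the supernatant and 2537 with medium.
The 3 genes whose pair of log2 signals lay closest to that of Slc30a3, over 2 arrays and 10686 genes above the floor on both, were Gse1, Ksr1 and Calhm6, at distances of 1.27, 1.33 and 1.33. They read 83.9, 60.3 and 68.6 with the supernatant and 208, 152 and 163 with medium. Each was lower by less than Slc30a3, by 2.48-fold, 2.52-fold and 2.37-fold, and no gene was a close match.

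Slc30a1 encodes ZnT1, the exporter that carries zinc out of the cell across the plasma membrane. Its brighter probe set, 1436164_at, read 1438 with the supernatant and 995 with medium, 1.45-fold higher (log2 ratio 0.53). The other, 1422786_at, read 356 with the supernatant and 206 with medium, 1.73-fold higher (log2 ratio 0.79). Both probe sets pointed the same way, and both differences exceeded the SD between probe sets. Of all measured genes 4.48% had a higher ratio than Slc30a1. Among the 3777 other genes with at least the same mean signal, 63 did.
Slc30a4, which encodes ZnT4 and loads zinc into vesicles and, in mouse mammary gland, into milk, read 1328 with the supernatant and 1050.2 with medium on its only probe set, 1.26-fold higher (log2 ratio 0.34). It was the second member with a difference upward beyond the SD between probe sets, but 9.03% of all measured genes had a higher ratio than Slc30a4.

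Slc30a5, Slc30a6, Slc30a7 and Slc30a9, which act in the secretory pathway or organelles, had nearly equal signals on both arrays. The vesicular exporters Slc30a3 and Slc30a4, given above, are not counted among them. Slc30a5, whose protein works with that of Slc30a6 to bring zinc to enzymes of the secretory pathway, read 3279 with the supernatant and 3166 with medium (log2 ratio 0.051). Slc30a6 itself read 617 with the supernatant and 688 with medium (log2 ratio -0.16). Slc30a7, a Golgi transporter, had log2 ratios of -0.022 and -0.18 on its 2 probe sets, from signals of 1041 and 347 with the supernatant and 1057 and 394 with medium. Slc30a9, which encodes a mitochondrial zinc exporter, read 1043 with the supernatant and 1061 with medium (log2 ratio -0.025). Their log2 ratios on the brightest probe set thus ran from -0.16 to 0.051. The log2 ratio of Slc30a3 minus that of Slc30a1 was -3.62.
The members of the family outside the 10 genes gave no further difference. Slc30a2, a vesicular exporter, was dim on both arrays (46.5 with the supernatant and 48.9 with medium), and Slc30a8, the exporter of insulin granules, and Slc30a10, which exports manganese, were under the floor on both. Of the 8 measured exporters 1 was at least 2-fold lower and none 2-fold higher.

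Both metallothioneins of the 10 genes had lower signals with the supernatant. Mt2 is read by 1 probe set, 1428942_at, with 3158 for the supernatant and 6449.7 for medium, 2.04-fold lower (log2 ratio -1.03). Of the 1170 other genes with at least the same mean signal, none had a lower ratio. The brighter Mt1 probe set, 1422557_s_at, read 8910.3 with the supernatant and 11772 with medium, 1.32-fold lower (log2 ratio -0.40), and of the 417 other genes at least as bright 1 had a lower ratio, the linker histone gene H1f2 (10174 with the supernatant and 14403 with medium), which was named after its values were seen. Its suffix _s marks probes that can match transcripts of more than 1 gene, so this signal may hold related transcripts. The second Mt1 probe set, 1451612_at, without that suffix, read 35.2 with the supernatant and 99.3 with medium. The first value is under the floor, which makes Mt1 at least 2.59-fold lower by this probe set. The probe sets of Mt1 therefore differ in the size of the difference and share its direction, and the larger one rests on a dim signal.
Mt3, the metallothionein known from brain, was also lower, at signals near those of the brightest receptor probe sets (49.1 with the supernatant and 75.3 with medium, 1.53-fold), and Mt4, known from stratified epithelia, did not reach the floor on either array. Of 3 measured metallothioneins 3 had ratios below 1 and 1 was at least 2-fold lower, and the median log2 ratio was -0.62, against -0.020 over all measured genes.

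**Figure D3:**
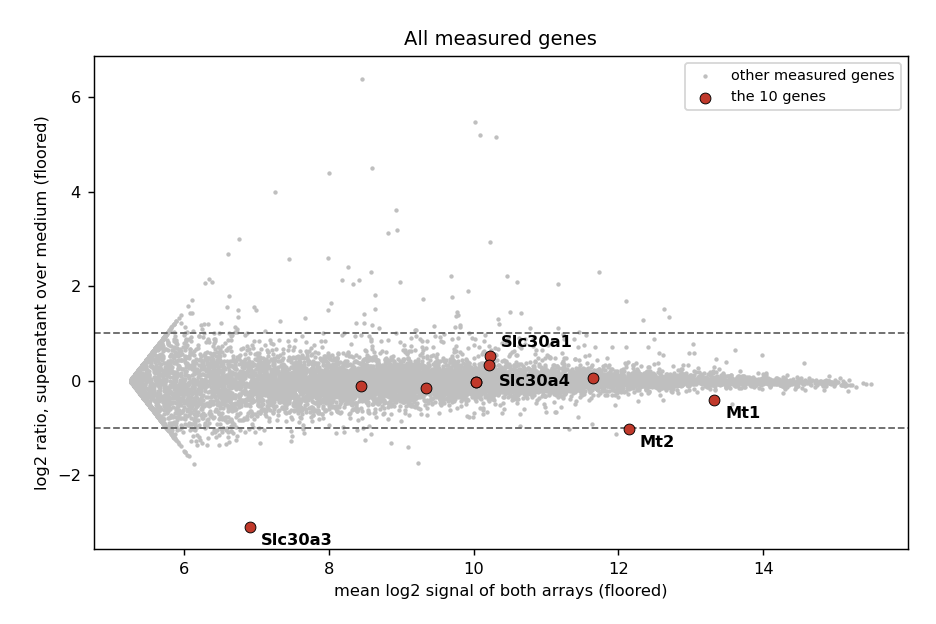
Difference in log2 signal, supernatant minus medium, plotted against the mean log2 signal of both arrays for the 11977 measured genes (grey) and the 10 genes (red), with dashed lines at a 2-fold difference. Slc30a3 lies at -3.09, below all other floored ratios, of which those of 734 genes under the floor with the supernatant are bounds, and Mt2 (-1.03) has the lowest ratio among genes with at least its mean signal.

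Mtf1, the metal sensor, had nearly equal signals. Its brightest probe set, 1418333_at, read 333 with the supernatant and 362 with medium (log2 ratio -0.12), and the next, 1428979_at, 296 with the supernatant and 319 with medium (log2 ratio -0.11). Another, 1429170_a_at, pointed the other way, with 320.4 for the supernatant and 257 for medium (log2 ratio 0.32), and the remaining 2 never reached the floor. The direction for Mtf1 is therefore not settled by these probe sets.
Slc30a1 and the metallothioneins, which Mtf1 is known to raise together, lay on opposite sides of equality. The log2 ratio of Slc30a1 was 0.93 above that of Mt1 and 1.56 above that of Mt2. Of 9 measured genes in a list of 10 Mtf1 targets, 1 was at least 2-fold lower (Mt2), none was 2-fold higher, and the median log2 ratio was -0.032. Some others are given here after their values were seen. Selenoh, a selenoprotein, read 3500 with the supernatant and 3294 with medium. Csrp1, a LIM domain protein, read 2367 with the supernatant and 2421 with medium. Gclc, which makes the catalytic subunit of the first enzyme of glutathione synthesis, read 2133 with the supernatant and 2156 with medium. Slc39a10, an importer that Mtf1 represses when zinc is high, read 3787 with the supernatant and 3895 with medium. The list thus holds both genes that Mtf1 raises and a gene that it represses, so its median is not a measure of Mtf1 activity.

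**Figure D4:**
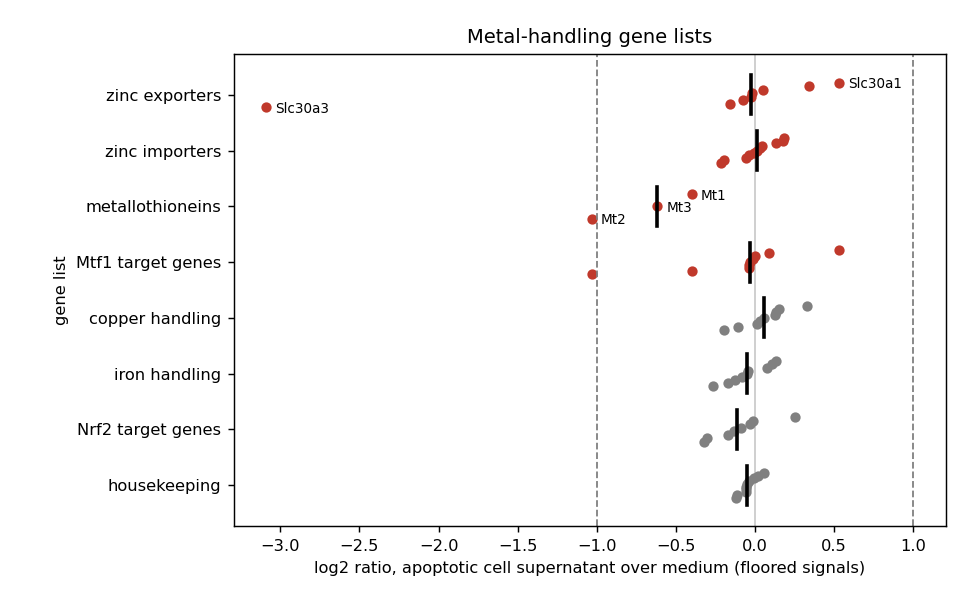
Log2 ratio of floored signals, apoptotic cell supernatant over medium, drawn as a point per measured gene for 4 zinc-related lists (red) and 4 others (grey), where a black bar is the median of a list and the dashed lines mark 2-fold; some genes belong to more than 1 list. All 3 measured metallothioneins lie left of 0, and the 11 zinc importers lie between -0.22 and 0.18.

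The zinc importers showed no difference of the size seen for Slc30a3 or Mt2. Of 14 Slc39 genes 11 were measured, 0 were at least 2-fold higher or lower, and the median log2 ratio was 0.013, with a range from -0.22 to 0.18. Slc39a6, a plasma membrane importer, read 6222 with the supernatant and 6247 with medium, and Slc39a1, a broadly expressed importer, read 4383.5 with the supernatant and 4286 with medium. Slc39a7, which releases zinc from the endoplasmic reticulum, read 2093 with the supernatant and 2029 with medium, and Slc39a11 read 1926 with the supernatant and 1909 with medium. Slc39a8, a zinc and manganese importer of the plasma membrane and lysosome, read 1211 with the supernatant and 1068 with medium. Slc39a14, which also carries iron, read 847 with the supernatant and 971 with medium. Slc39a9, Slc39a13, Slc39a3 and Slc39a4 read 604, 325, 298 and 186 with the supernatant and 552, 288, 347 and 194 with medium. Further probe sets above the floor pointed the other way for 3 importers, so their direction is not settled. The second probe set of Slc39a3 read 188 with the supernatant and 118 with medium (1.59-fold higher). Another 2 of Slc39a14 read 111 and 118 with the supernatant and 100.2 and 98.9 with medium (1.11-fold and 1.19-fold higher), and the second of Slc39a10 read 146 with the supernatant and 139 with medium (1.05-fold higher). Slc39a2, Slc39a5 and Slc39a12 were under the floor on both arrays.

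Other metals and other known inducers of metallothioneins were looked at in lists of their own. Of 9 measured copper handling genes none was 2-fold apart, with a median log2 ratio of 0.056. Sod1, the copper and zinc superoxide dismutase, read 17269 with the supernatant and 15805 with medium. Atox1, a copper chaperone, read 10649.6 with the supernatant and 10247 with medium. Of 9 measured iron handling genes none was 2-fold apart, with a median log2 ratio of -0.054. Fth1, the ferritin heavy chain, read 37942 with the supernatant and 41524 with medium, and Tfrc, the transferrin receptor, read 6949 with the supernatant and 7348 with medium. Of 8 measured Nrf2 targets, the oxidative stress genes, none was 2-fold apart (median log2 ratio -0.11). Ratios were below 1 for 7 of the 8 and above 1 for 1, where 54.6% of all measured genes were below 1. Hmox1, which breaks down heme, read 5003 with the supernatant and 5639 with medium. Of 6 measured glucocorticoid-responsive genes none was 2-fold apart, and Per1, a clock gene, came closest (486 with the supernatant and 249 with medium). Sgk1, a kinase, read 10745 with the supernatant and 9545 with medium. Tsc22d3, a standard readout of glucocorticoids, read 1647 with the supernatant and 1605 with medium. The zinc-binding S100a8 read 462 with the supernatant and 391 with medium, and S100a9 read 73.0 with the supernatant and was under the floor with medium, so that it was at least 1.90-fold higher. Of 10 housekeeping genes none was 2-fold apart, 8 had ratios below 1 and 2 above, and their log2 ratios ran from -0.12 to 0.054.

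**Figure D5:**
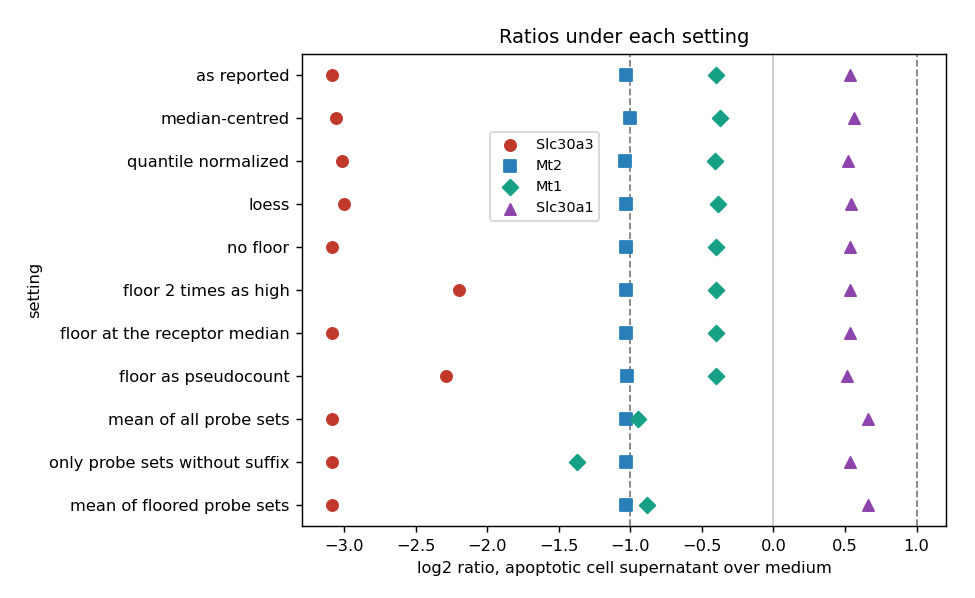
Log2 ratio, apoptotic cell supernatant over medium, of Slc30a3, Mt2, Mt1 and Slc30a1 as reported and under 10 other settings for scaling, floor and choice of probe set, with dashed lines at a 2-fold difference. Slc30a3 ranges from -3.09 to -2.20 and Mt2 from -1.04 to -1.001, while Mt1 reaches -1.37 when only probe sets without a suffix are used.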

How the data were processed

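The authors hybridized biotin-labelled cRNA of the BMDMs to Affymetrix 3′ expression arrays covering the mouse genome, 1 per condition, and deposited MAS5 signals, which are linear intensity values. Both arrays had a mean of 500.004 after 2% of the 45101 probe sets were trimmed at each end, so each carries its own scaling factor. No genome build or filter is given in the sources used here.

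Probe sets were named from the platform annotation (34958 with 1 gene, 932 with several, 9211 not listed), and symbols were looked up by Entrez identifier in RefSeq (34754 found, 0 changed). A gene was represented by its brightest probe set on average over both arrays, and the log2 ratio of floored signals computed. All single-gene probe sets of the 10 genes are reported. Of each gene list the text names genes at least 2-fold apart, all zinc transporters and metallothioneins, and otherwise up to 3 of the brightest. Per1, H1f2, Plk2, single markers and the lesser Mtf1 targets were named after their values were seen. The members and lists were chosen with earlier results of these data known. No test was run. Python 3.11.15, numpy 2.4.6, pandas 2.3.3, statsmodels 0.14.6 and matplotlib 3.10.9 were used, and the steps were tested on simulated data. Only genes far above the floor in medium were altered there, and none was brought down to it. A drop to near the floor, as for Slc30a3, was therefore not tested. Alternatives covered scaling (median-centring, quantile, loess with a span of 30%), the floor and the choice of probe set.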

Additional observations from a re-analysis of the deposited data

How the results depend on the processing

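No paired analysis was possible because there were 2 arrays, 1 for each treatment, and for the same reason no replicate could be left out. Precision is limited by the number of arrays, and Slc30a3 also by a supernatant signal barely above the floor. The number of members at least 2-fold lower was 2, or 3 with only probe sets without a suffix, and the number higher was 0 in all 10 alternatives. The log2 ratio of Slc30a3, -3.09, was -2.29 with the floor as a pseudocount and -2.20 with a floor raised 2 times, both of which raise the dim signal by construction. That of Mt2 stayed between -1.04 and -1.001, so it stood at the 2-fold threshold, and that of Slc30a1 between 0.52 and 0.66. Slc30a7 and Slc30a9 changed sign on median-centring, at log2 ratios of 0.0070 and 0.0050. When all probe sets of a gene were averaged and floored only afterwards, Mt1 was at -0.95 and Mtf1 at 0.48. With each probe set floored first, an alternative chosen after seeing the data, Mt1 was at -0.89 and Mtf1 at 0.018. With only probe sets without a suffix Mt1 was at -1.37, and metallothioneins at least 2-fold lower numbered 2 in place of 1 and Mtf1 targets 2 in place of 1. With no floor Mtf1 targets lower numbered 2. With a floor of 9.56, the receptor median, they numbered 2, exporters at least 2-fold lower 2 in place of 1 and higher 1 in place of 0, and importers higher 1 in place of 0. Over all measured genes 115 were at least 2-fold higher and 101 lower. With no floor 369 were higher and 464 lower, and with the receptor median as floor 1006 were higher and 1210 lower. After quantile normalization 137 were higher and 66 lower, and after loess 136 were higher and 71 lower. Lower genes numbered 27 with a floor raised 2 times. With the mean of all probe sets they numbered 157 when the floor came after averaging and 51 when it came first.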
